A study of Drosophila melanogaster with 2 samples.

Results

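The 300 strongest CG2129-eGFP sites in intergenic DNA away from promoters were examined in early Drosophila melanogaster embryos. CG2129 is annotated as a C2H2 zinc finger protein. Chromatin from whole embryos 0-4 h after egg laying, of 1 transgenic strain that carries CG2129 fused to eGFP, was precipitated with an anti-GFP antibody and sequenced (ChIP-seq). There was 1 group of 2 biological replicates, and both carried the fusion. The labels name a possible control experiment, which was not analysed here, so recovery without the tagged protein has no value below. Both replicates come from the same strain, and a whole embryo mixes all its cell types, so binding in few cells and weak binding in many cannot be told apart.

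The sites were chosen by the authors' pooled signal, a peak height on a scale that the sources used here do not state. Of 47947 peaks in the authors' pooled ranked list, 47806 lay on chromosomes X, 2, 3 and 4. Of these, 7339 had a summit inside no annotated gene and over 500 bp from any transcription start site (TSS), and the 300 with the highest signal were kept. They are called intergenic sites here and are numbered by rank. The other ranked peaks were 12167 at promoters, within 500 bp of a TSS, and 28300 elsewhere in gene bodies. None of the 300 sites fell within 500 bp of a TSS (0 sites) or inside a gene (0 sites) of the RefSeq annotation either. Both annotations gave the same distance to the nearest TSS at nearly all of the strongest sites, so RefSeq was not an independent check.

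C2H2 zinc finger proteins read DNA through arrays of small folds that each contact a few neighbouring bases, and many fly members bind promoters or the borders of chromatin domains. Several short sequences recur at such places in this genome. The DNA replication-related element (DRE), TATCGATA, is read by DREF, a factor of growth and replication genes. Its inner part CGATA is also the core read by BEAF-32, a boundary element protein. Core promoter motif 7, with the forms CAGCNCTA, CAGCNCTG, CATCNCTA and CATCNCTG, recurs near fly TSSs that lack a TATA box. All matches below were counted on both strands and required every letter. TATCGATA contains TATCGAT, and TATCGAT reads CGATA on its other strand, so these counts are not independent.

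The sequences that follow are those on which the motif results turn, read from the dm6 genome. The first set holds CGTGACAC, an 8-base word (8-mer) that came out of an open count of words and was picked after its counts were seen. Sequences run 5′ to 3′ on the strand that reads CGTGACAC, and that word is in capitals. The strongest intergenic site, the matching stretch of a near copy of it that was bound, and 3 more of the 10 strongest sites are shown first.

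Rank 1, chrX:758943-759030, plus strand: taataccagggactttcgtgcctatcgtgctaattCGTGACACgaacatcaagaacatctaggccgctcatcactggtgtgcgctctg
Bound copy of rank 1, chrX:796508-796595, plus strand: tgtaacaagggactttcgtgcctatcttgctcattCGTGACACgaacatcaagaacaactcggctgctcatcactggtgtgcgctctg
Rank 4, chrX:1517683-1517770, plus strand: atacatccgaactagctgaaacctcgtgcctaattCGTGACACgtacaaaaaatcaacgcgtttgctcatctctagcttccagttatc
Rank 9, chrX:4956084-4956171, plus strand: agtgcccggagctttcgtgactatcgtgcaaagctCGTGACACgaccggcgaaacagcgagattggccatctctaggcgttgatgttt
Rank 3, chr3L:22078261-22078348, minus strand: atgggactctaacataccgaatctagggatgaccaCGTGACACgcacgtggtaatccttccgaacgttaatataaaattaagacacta
Rank 46, chr2L:19220764-19220851, plus strand: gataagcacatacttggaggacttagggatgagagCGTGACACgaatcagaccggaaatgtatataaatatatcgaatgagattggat
Rank 150, chrX:20577379-20577466, minus strand: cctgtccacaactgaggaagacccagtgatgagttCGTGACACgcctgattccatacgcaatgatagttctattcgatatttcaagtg

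A second copy of the rank 1 sequence, which held no CGTGACAC, is shown in the orientation of rank 1 because it carries the contrast described further on.

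Other copy of rank 1, chrX:1063535-1063661, minus strand: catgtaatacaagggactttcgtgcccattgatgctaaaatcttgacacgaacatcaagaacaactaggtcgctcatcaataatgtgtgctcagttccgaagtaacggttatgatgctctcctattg

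The last set holds the DRE palindrome, in capitals, at 4 of the 5 strongest sites that have it.

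Rank 6, chr2L:20120530-20120597, plus strand: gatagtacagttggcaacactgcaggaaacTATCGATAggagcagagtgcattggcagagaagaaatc
Rank 7, chr2L:6968256-6968323, plus strand: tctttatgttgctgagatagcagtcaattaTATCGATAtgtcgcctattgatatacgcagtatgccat
Rank 10, chr4:696905-696972, plus strand: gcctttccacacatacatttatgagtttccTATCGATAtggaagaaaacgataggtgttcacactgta
Rank 17, chr3R:4479731-4479798, plus strand: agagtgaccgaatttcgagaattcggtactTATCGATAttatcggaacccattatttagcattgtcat

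The signal of the intergenic sites fell steeply with rank. It ran from 23.9 to 282 with a median of 28.0, against a median of 11.7 over all 7339 eligible intergenic peaks and 12.6 over all ranked peaks of these chromosomes. Only 10 sites were above 100 and 36 above 50, and the middle of the set, between the quartiles 25.6 and 34.6, was narrow. At the limit of the choice the values were nearly equal. The 2 sites just inside had signals of 23.89 and 23.89 (near CG13898 and Cyp18a1) and the 2 just outside had 23.87 (near lncRNA:CR44610) and 23.85 (near CadN). The set therefore has a strong head and a long tail that runs on into weaker peaks without a gap.

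**Figure D1:**
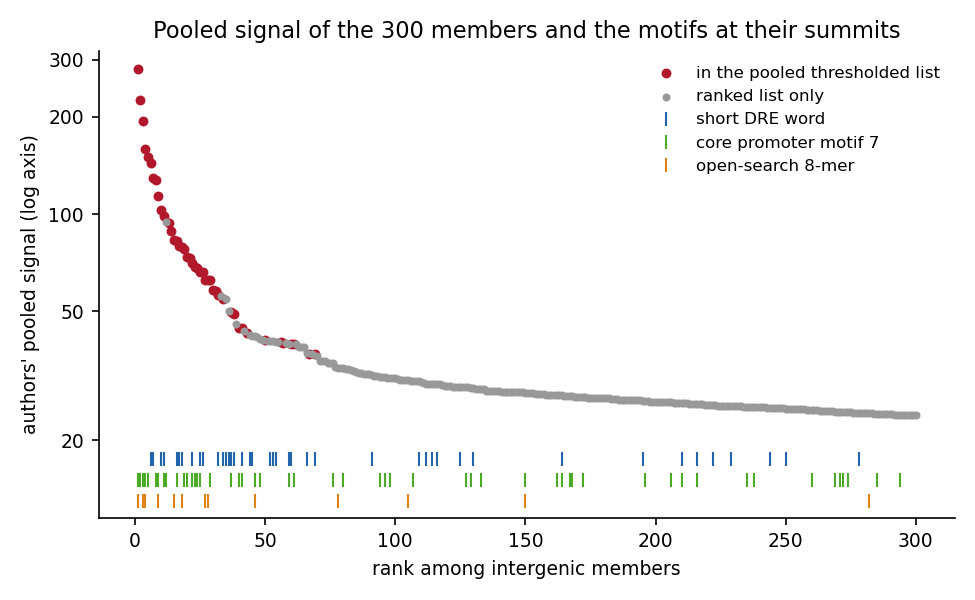
The authors' pooled signal (log axis, scale not stated) of each of the 300 intergenic sites against its rank, red where the peak is in the pooled thresholded list. Ticks below mark sites with a short DRE word, core promoter motif 7 or the open-search 8-mer within 100 bp of the summit, and all 3 are dense among the 30 strongest sites, 26 of which have at least 1.

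The strongest intergenic site had a pooled signal of 282, with 157 in replicate 1 and 118 in replicate 2. It lies at chrX:758828-759130, its summit 607 bp upstream of the nearest TSS, that of CG5273. Rank 2, at chr2L:1462143-1462413, had a pooled signal of 225, with 96.2 in replicate 1 and 132 in replicate 2. CG43402 has the closest TSS, 19565 bp away, and the site stands in a 48462 bp gap between genes. Rank 3, at chr3L:22078125-22078372, had a pooled signal of 194, with 102 in replicate 1 and 87.7 in replicate 2, and lies 2061 bp from the TSS of Sfp79B, a seminal fluid protein gene. These 3 sites were high in both replicates, and they differ widely in how far they sit from a TSS. Below, a distance from a gene runs from the summit to that gene's TSS, and the nearest gene is the one with the nearest TSS. A gene's body can lie closer: rank 9, at 5032 bp from CG15468, stands in a gap of 729 bp between genes.

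Rank 4 (chrX:1517577-1517874), 4651 bp from inc, had a pooled signal of 159, with 91.2 in replicate 1 and 60.5 in replicate 2; inc encodes an adaptor of a ubiquitin ligase needed for normal sleep. Rank 5 (chrX:3704154-3704381), 2403 bp from lncRNA:CR45102, had a pooled signal of 150, with 61.2 in replicate 1 and 93.3 in replicate 2. Thus 3 of the 5 strongest sites are on X.

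Rank 6 (chr2L:20120478-20120704), 14287 bp from CG10651, had a pooled signal of 144, with 72.3 in replicate 1 and 66.8 in replicate 2. Rank 7 (chr2L:6968026-6968340), 603 bp from Sumo, the gene of the small ubiquitin-like modifier, had a pooled signal of 129, with 63.9 in replicate 1 and 88.0 in replicate 2. Rank 10 (chr4:696811-696987), 810 bp from ey, the eye selector gene of the Pax6 family, had a pooled signal of 103, with 67.9 in replicate 1 and 37.7 in replicate 2. These are the 3 sites of the 10 strongest that hold TATCGATA, and with Rcd2 and CG31523 below they all passed the authors' threshold in both replicates.

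Rank 8 (chr3R:29251408-29251587), 1051 bp from SP1029, had a pooled signal of 127, with 64.7 in replicate 1 and 66.6 in replicate 2. Rank 9 (chrX:4956007-4956187), 5032 bp from CG15468, had a pooled signal of 114, with 69.5 in replicate 1 and 36.2 in replicate 2, and was the only 1 of the 10 strongest outside the thresholded list of replicate 2. Rank 11, 516 bp from Rcd2, a gene named from a screen for centrosome defects, had a pooled signal of 98.6, with 62.5 in replicate 1 and 41.7 in replicate 2. Rank 17, 573 bp from CG31523, had a pooled signal of 79.6, with 43.1 in replicate 1 and 39.3 in replicate 2. Replicate 1 was the higher at ranks 9, 11 and 17, and the 2 were nearly level at rank 8. Rank 16, 650 bp from psq, the gene of a DNA-binding factor of the ovary and embryo, had a pooled signal of 82.8, with 45.01 in replicate 1 and 37.8 in replicate 2, and holds both TATCGATA and motif 7.

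The reported peak length also set the head apart. Most of the 300 peaks had the same length of 404 bp, and 12 were shorter. All 10 of the 10 strongest were among those shorter peaks, against 2 of the other 290, the shortest of all being 137 bp. Some sites stood close together: 18 lay within 1000 bp of another, so the 300 sites form 290 loci.

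Few of the sites were in the list that the authors thresholded on the irreproducible discovery rate (IDR), which asks whether 2 rankings of peaks agree. Which rankings were set against each other for these lists is not stated. In the pooled thresholded list were 44 of the 300 intergenic sites (14.7%, exact Clopper-Pearson 95% interval 10.9 to 19.2%), against 4.32% of all ranked peaks of these chromosomes. All 44 were among the 100 strongest sites. Ranks 12, 33, 85 and 174, all between 12007249 and 12012815 on 2L, had a −log10 IDR above the 2 that marks the threshold and were not in the list; their values were 3.495, 2.55, 2.05 and 2.46. Intervals here cover counting error over sites only. Since the pooled signal chose the sites, this share is a description and has no test.

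A ranked peak of replicate 1 covered 277 of the 300 sites (92.3%), a ranked peak of replicate 2 covered 253 (84.3%), and peaks of both covered 233 (77.7%, 95% interval 72.5 to 82.3%), against 26.6% of all ranked peaks. A peak was counted as covering a site where the overlap was at least 50% of the shorter of the 2. With summits within 100 bp required instead, 180 sites (60%) were covered in both. Peaks of replicate 1 alone covered 44 sites, of replicate 2 alone 20, and of neither 3. The share covered in both was 95 of 100 at ranks 1 to 100, 77 of 100 at ranks 101 to 200 and 61 of 100 at ranks 201 to 300. By the thresholded lists of the replicates, 14 sites (4.67%) were covered in both, against 2.52% of all ranked peaks, and 262 sites in neither. The sites were ranked by a signal pooled over these same replicates, which itself favours coverage in both. These shares and their fall with rank are therefore descriptions without a test.

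Over the 277 sites covered in replicate 1, its signal ran from 6.21 to 157 with a median of 16.8. Over the 253 covered in replicate 2, its signal ran from 3.98 to 132 with a median of 14.03. Across the 233 sites covered in both, Spearman's rho between replicates was 0.157, and it was 0.0395 across the 223 left without the 10 strongest. Both values describe sites picked on the signal pooled over both replicates, and they are given without a p. Overlapping sites could share a replicate peak: rank 39 was given the same ones as rank 9 and stays among the 223.

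**Figure D2:**
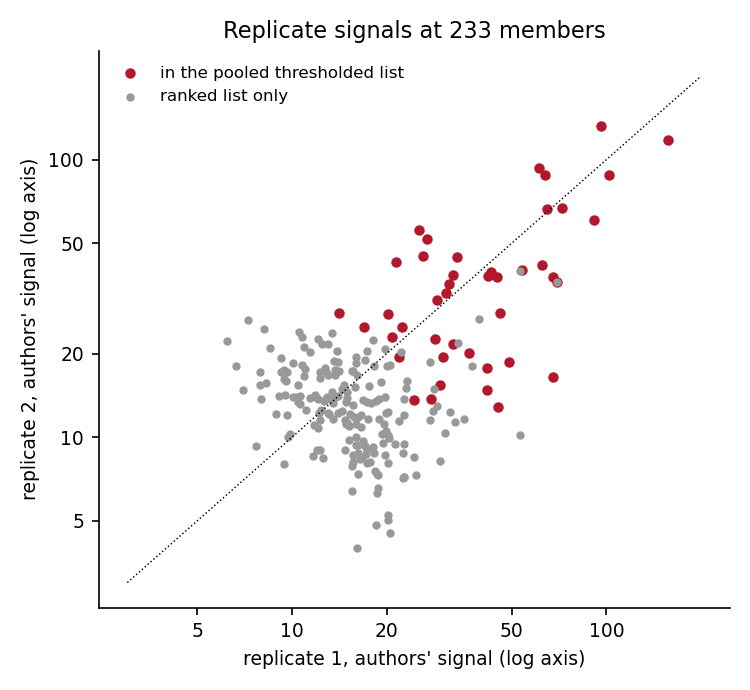
The authors' signal in replicate 1 (x, log axis) and replicate 2 (y, log axis) at the 233 intergenic sites covered by a ranked peak of both, red where the pooled peak is thresholded, with the line of equal signal dotted. The highest red sites lie near the line, up to 157 in replicate 1 and 132 in replicate 2, and others such as rank 18 (67.7 and 16.4) lie far from it. Most grey sites are lower, with exceptions such as rank 12 (53.0 and 39.7). Grey rank 39 (69.5 and 36.2) overlaps rank 9 and was given the same replicate peaks, so its values are those of rank 9.

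The DRE word TATCGATA was more frequent at the summits of the intergenic sites than in the same sites' flanks, and so were 4 other motifs, whose calls were lost when 1 or the other replicate was left out. Sequence was not used to choose the sites, so it was tested, with an exact McNemar test that sets 100 bp on each side of the summit against an equal window centred 1000 bp away, on the side away from the nearest TSS. Flanks were not required to be intergenic. Ranks 1 and 9, for example, stand in gaps of 874 and 729 bp between genes, so their flanks are centred outside those gaps. Adjustment was by Benjamini-Hochberg over 17 listed motifs, and the p-values measure the spread between sites, not between embryos. The motifs were listed with earlier results of these data known, which the p-values do not take into account. Of the 17 motifs, 5 passed an adjusted p of 0.05 (29.4%), all higher at summits. With the 300 sites taken from replicate 1 alone, 2 motifs passed, TATCGATA and TATCGAT, and with the sites taken from replicate 2 alone, 1 passed, TATCGATA. The calls of CGATA, motif 7 and CACGTG were lost when either replicate was left out.

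TATCGATA was found at 21 of 300 summits (7%) and in 5 of 300 flanks (1.67%), adjusted p = 0.0106 by the exact test. TATCGAT was found at 42 summits (14%) and in 13 flanks (4.33%), adjusted p = 0.00139 by the exact test. CGATA was found at 112 summits (37.3%) and in 71 flanks (23.7%), adjusted p = 0.00543 by the exact test. All 3 belong to the same overlapping family. Motif 7 was found at 52 summits (17.3%) and in 26 flanks (8.67%), adjusted p = 0.0105 by the exact test. CACGTG, the palindromic E-box read by several basic helix-loop-helix factors, was found at 17 summits (5.67%) and in 4 flanks (1.33%), adjusted p = 0.0150 by the exact test. Its call was also lost in the 100 strongest sites, in the 600 strongest, and with 50 bp on each side of the summit.

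The other 12 motifs did not pass. GAGAGAG, the word of GAGA factor, which keeps promoters and Polycomb elements open, was at 20 summits and in 11 flanks (adjusted p = 0.289, exact test). CAGGTAG, the word of Zelda, the factor that opens the early zygotic genome, was at 8 summits and in 5 flanks (adjusted p = 0.823, exact test). The insulator words AGNNGGCGC of CTCF and GCATACTT of Su(Hw) were at 7 and 3 summits and in 3 and 2 flanks. TATAAA, the TATA box, was at 54 summits and in 72 flanks (adjusted p = 0.239, exact test). TAATCC of Bicoid, at 19 summits and in 20 flanks, and TTTATG of Caudal, at 57 summits and in 61 flanks, were close to even. The rest were GATAAG (26 summits, 20 flanks), CACATG (25 and 26), GGTCACACT (2 and 2), CACACACA (23 and 16) and the A run AAAAAAAA (20 and 33). These calls depend on the side of the flank. With the flank taken towards the TSS instead, 6 motifs passed: GAGAGAG and AAAAAAAA were then called, and CACGTG was not.

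The DRE counts were concentrated in the head of the set. TATCGATA was at 17 of 100 summits at ranks 1 to 100, 2 of 100 at ranks 101 to 200 and 2 of 100 at ranks 201 to 300, and motif 7 at 29, 11 and 12. It was at 12 of the 44 thresholded sites (27.3%, 95% interval 14.96 to 42.8%) and at 9 of the 256 others (3.52%, 1.62 to 6.57%). Over those 256 sites alone the summit-minus-flank difference in TATCGATA was 1.95 percentage points (adjusted p = 0.567, exact test) and 0 of the 17 motifs passed. The call was also lost, at 3.33 percentage points (adjusted p = 0.0904, exact test), with a limit of 1000 bp from a TSS in place of 500 bp, where again 0 of the 17 motifs passed, and at 3.67 percentage points (adjusted p = 0.0816, exact test) with transposable elements treated as genes, against 5.33 percentage points as first defined.

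In the 7039 intergenic peaks weaker than the 300, TATCGATA and motif 7 did not differ between summits and flanks past the threshold. TATCGATA was at 39 of those summits and in 31 flanks (exact p = 0.403), and motif 7 at 444 summits and in 419 flanks (exact p = 0.403).

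**Figure D3:**
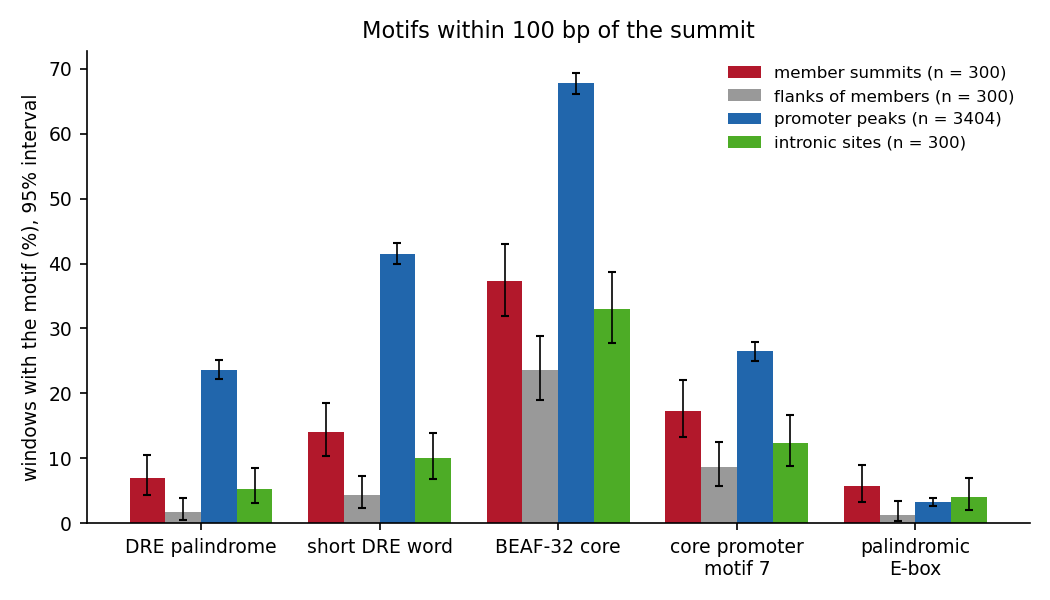
Share of windows, 100 bp each side of the summit, that hold each motif (%), with exact 95% intervals, at the summits and flanks of the 300 intergenic sites, at 3404 promoter peaks and at 300 intronic sites. The intergenic summits lie above their own flanks for all 5 motifs, and below promoter peaks for all but the palindromic E-box.

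Against promoter peaks the intergenic sites were poorer in DRE words. The comparison took the 3404 promoter peaks with a signal at or above that of the weakest intergenic site; their median was 46.0, above that of the intergenic sites, so the range was shared but not the distribution. TATCGATA was at 7% of intergenic summits and 23.6% of promoter summits (odds ratio 0.243, adjusted p = 1.06e-12, Fisher's exact test). TATCGAT was at 14% of intergenic and 41.5% of promoter summits (odds ratio 0.229, adjusted p = 2.63e-22, Fisher's exact test), and CGATA at 37.3% and 67.7% (odds ratio 0.284, adjusted p = 1.43e-23, Fisher's exact test). Motif 7 was at 17.3% of intergenic and 26.5% of promoter summits (odds ratio 0.582, adjusted p = 0.00144, Fisher's exact test).

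Some other listed words were also rarer at the intergenic sites than at promoter peaks. GGTCACACT, the core read by M1BP, a factor of housekeeping promoters, was at 0.667% of intergenic and 5.41% of promoter summits (odds ratio 0.117, adjusted p = 0.000108, Fisher's exact test). TATAAA was at 18% of intergenic and 26.6% of promoter summits (adjusted p = 0.00266, Fisher's exact test), and GATAAG, the word of GATA factors, at 8.67% and 13.8% (adjusted p = 0.0219, Fisher's exact test). The sequence TATCGATAAG holds both TATCGATA and GATAAG, so the GATAAG counts are not independent of those of the DRE words. In the other direction, the CA repeat CACACACA was at 7.67% of intergenic and 3.53% of promoter summits (odds ratio 2.27, adjusted p = 0.00338, Fisher's exact test). The Zelda word CAGGTAG was at 2.67% of intergenic and 1.06% of promoter summits (odds ratio 2.56, adjusted p = 0.0431, Fisher's exact test).

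The TATCGATA difference from promoters was called in 12 of 13 alternatives. Within the interquartile range of the sites' signal it was at 3 of 150 intergenic and 76 of 892 promoter summits (adjusted p = 0.0208, Fisher's exact test). With thresholded peaks alone on both sides it was at 12 of 48 intergenic and 639 of 1947 promoter summits, and the difference of -7.82 percentage points did not pass (adjusted p = 0.442, Fisher's exact test).

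Against the 300 strongest intronic sites, with signals from 26.3 to 156 and a median of 29.96, TATCGATA was at 7% of intergenic and 5.33% of intronic summits (adjusted p = 0.771, Fisher's exact test). Motif 7 was at 17.3% of intergenic and 12.3% of intronic summits (adjusted p = 0.457, Fisher's exact test). Lower at the intergenic sites were GAGAGAG, at 6.67% against 14.7% of intronic summits (odds ratio 0.416, adjusted p = 0.0345, Fisher's exact test), and CACATG, the E-box of Twist, at 8.33% against 16.3% (odds ratio 0.466, adjusted p = 0.0345, Fisher's exact test).

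An open count of all 8-mers found none past the threshold. Of the 202 that occurred in at least 20 summit and flank windows together, 0 passed an adjusted p of 0.05 by the exact McNemar test (0%) and 12 had an unadjusted p below 0.05. The smallest adjusted p was 0.130, shared by 4 words. ATATCGAT, at 23 summits and in 6 flanks, and TATCGATA were more frequent at summits, and AATAAAAT, at 6 summits and in 22 flanks, and CAAACAAA, at 4 summits and in 18 flanks, were more frequent in flanks.

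Among the words too rare for that test, CGTGACAC was at 13 summits (4.33%, 95% interval 2.33 to 7.30%) and in 2 flanks. Other such words had a similar excess. CGTGTCAC, which can overlap it on the other strand, was at 13 summits and in 1 flank, AGAGATGG at 13 and in 2, and AACTATCG at 12 and in 1. CGTGACAC was chosen after these counts were seen, so it has no test at these sites. It was followed by G at 12 summits, and the resulting word is a near palindrome. Of the 13 sites, 8 were among the 30 strongest and 7 were on X, and none held TATCGATA (0 sites). At thresholded peaks that are not intergenic sites, CGTGACAC was at 38 of 2022 summits (1.88%) and in 6 flanks (exact McNemar p = 9.43e-07). At the 1954 thresholded promoter peaks among them it was at 30 summits and in 4 flanks (exact p = 6.16e-06). At the 64 thresholded gene-body peaks among them it was at 8 summits (12.5%) and in 2 flanks (exact p = 0.109), and at the 300 intronic sites at 8 summits and in 3 flanks (exact p = 0.227), neither past the threshold. At the 7039 weaker intergenic peaks it was at 23 summits and in 25 flanks (exact p = 0.885).

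A motif 7 match stood in 1 of 2 arrangements at all 6 of the sites that held both it and CGTGACAC. At ranks 1, 4 and 9 a motif 7 match followed CGTGACAC on the same strand, with 25, 24 and 24 bases between them, seen in the sequences above as catcactg, catctcta and catctcta. At ranks 3, 46 and 150 it preceded CGTGACAC on the opposite strand with 4 bases between them. The arrangement was noticed in these sequences and is given as a count. At the 38 thresholded peaks elsewhere that hold CGTGACAC, 18 also held motif 7; 1 match had the first arrangement, at the bound copy of rank 1, and 2 had the second.

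The 10 strongest sites also shared longer runs of bases. The longest run common to a pair had a median of 9 bp over the 45 pairs, either strand allowed. Ranks 1 and 5 shared 16 bp (tttcgtgcctatcgtg), which lies just before CGTGACAC at rank 1, and ranks 1 and 4 shared 15 bp (ctaattcgtgacacg), which contains it. Both pairs are on X.

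The rank 1 sequence has copies that differ in the word and in their signal. A copy was counted where at least 80% of bases matched over at least 100 bp of the 401 bp around a summit. The first, at chrX:796388-796739, matched 88.4% over 362 bp and lies inside an annotated gene, 3416 bp from the nearest TSS, that of CG16989. It kept CGTGACAC and motif 7, and a thresholded peak with its summit at 796550 and a signal of 248 lay on it, close to the 282 of rank 1. The second, at chrX:1063535-1063661, matched 82.7% over 127 bp. Counted from 1 at the start of CGTGACAC, it has the substitution G2T, among further differences, and it held no motif 7. No ranked peak of either replicate overlapped it (0 and 0 peaks); 1 pooled ranked peak with a signal of 25.96 reached it from a summit 186 bp outside it, and was not thresholded. How reads that fit several places were assigned is not stated in the sources used here, so how far rank 1 and its first copy share signal was not tested.

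**Figure D4:**
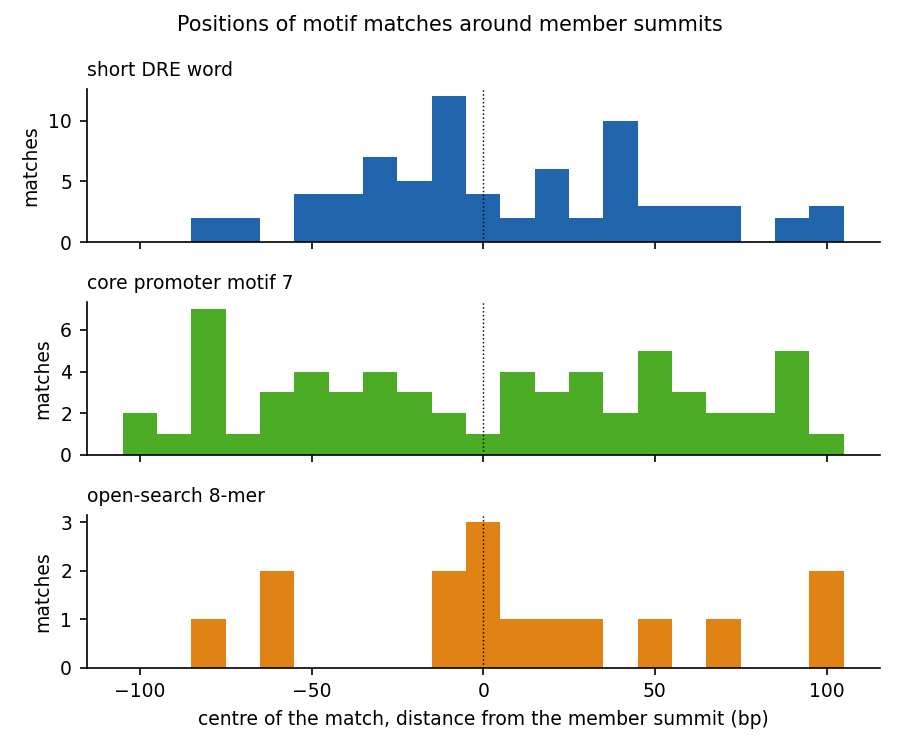
Number of matches by distance of the match's centre from the summit (bp, bins of 10) for the short DRE word, core promoter motif 7 and the open-search 8-mer at the 300 intergenic sites. The 8-mer and the short DRE word lie closest to the summit, with median distances of 20.5 and 28.5 bp, and motif 7 lies farther out, with a median of 46 bp.

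Together, TATCGAT, motif 7 or CGTGACAC were at 90 of the 300 summits. They were at 34 of the 44 thresholded sites (77.3%, 95% interval 62.2 to 88.5%) and at 56 of the 256 others (21.9%, 17.0 to 27.4%), and at 26 of the 30 strongest sites. CGTGACAC was picked from these same summits, and TATCGAT and motif 7 had passed at them, so these shares are descriptions without a test. The joint share was not computed for flanks or other peaks, and motif 7 alone was in 8.67% of flanks. The sites with CGTGACAC had it within 25 bp of the summit in 7 of 13 cases, those with TATCGAT in 18 of 42 and those with motif 7 in 13 of 52.

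Base composition relative to the flanks differed in sign between the whole set and its 100 strongest sites. Over all 300 sites, GC content averaged 43.9 ± 8.07% at summits and 41.7 ± 8.59% in flanks (SD over sites), a mean difference of 2.20 percentage points that was positive at 174 of 300 sites (p = 0.00122, two-sided permutation test by sign flips). It was 1.28 with the flank on the side towards the TSS (permutation p = 0.0759) and 1.19 with the flank at 2000 bp (permutation p = 0.0728), neither past the threshold. In the 100 strongest sites the difference was -2.33 percentage points (permutation p = 0.0395). Summits averaged 41.3% GC at ranks 1 to 100, 45.2% at ranks 101 to 200 and 45.3% at ranks 201 to 300, against 40.2 ± 8.16% at promoter peaks and 44.9 ± 7.44% at intronic sites.

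The intergenic sites lay nearer to TSSs than intergenic DNA as a whole. The median distance from summit to TSS was 2423.5 bp, and it was 1878 bp at ranks 1 to 100, 2668.5 bp at ranks 101 to 200 and 2808 bp at ranks 201 to 300. Between 501 and 1000 bp from a TSS lay 59 sites (19.7%, 95% interval 15.3 to 24.6%), against 11.2% of the weaker intergenic peaks and 7.79% of the eligible bases, which are the bases outside genes and over 500 bp from a TSS. Beyond 10000 bp lay 30 sites (10%, 6.85 to 13.97%), against 16.2% of weaker intergenic peaks and 35.1% of eligible bases. These shares are descriptions without a test. Upstream of the gene with the nearest TSS lay 187 sites (62.3%, 56.6 to 67.8%). The same share was not computed for weaker peaks or eligible bases, so it cannot show a preference for the upstream side.

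By the orientation of the genes on both sides, 91 sites lay between divergent genes (30.3%, 25.2 to 35.9%), against 23.4% of weaker intergenic peaks and 20.4% of eligible bases. Between genes of the same orientation lay 131 sites (43.7%), against 50.3% of eligible bases, and between convergent genes 77 (25.7%), against 25.6%. With the limit at 1000 bp from a TSS the divergent share was 23.7%.

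**Figure D5:**
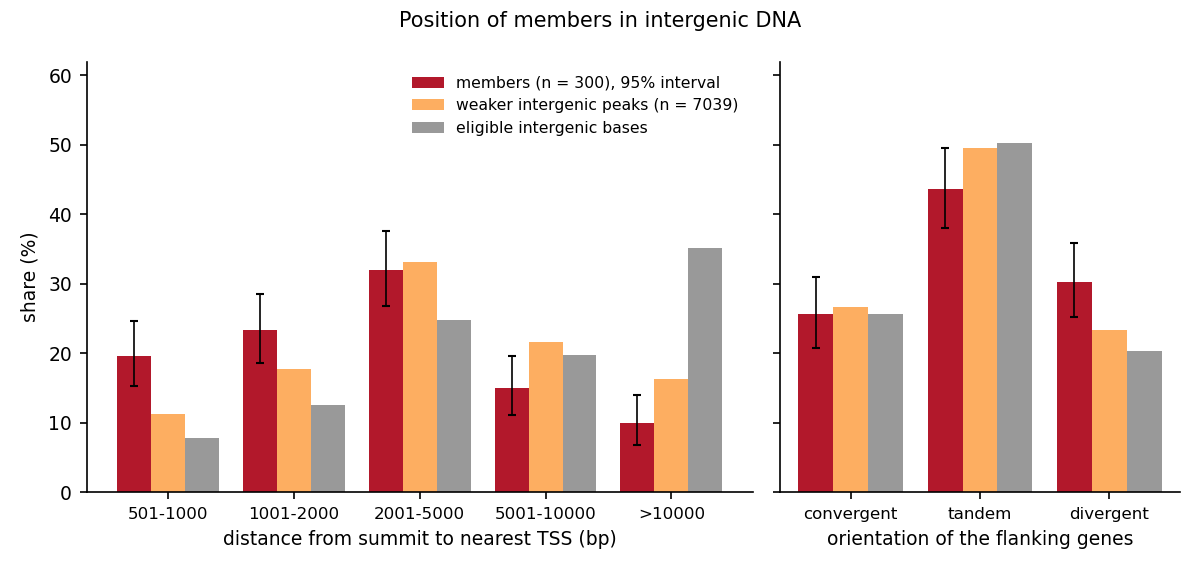
Share (%) of the 300 intergenic sites, with exact 95% intervals, of the 7039 weaker intergenic peaks and of the eligible bases, by distance to the nearest TSS (left) and by orientation of the flanking genes (right). The intergenic sites exceed both in the 501-1000 bp class, at 19.7%, and between divergent genes, at 30.3%.

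By chromosome, the share on X was close to that of the eligible bases over the whole set but not in its head, and the share on chromosome 4 was above it. On X were 41 sites (13.7%, 9.99 to 18.1%), against 14.5% of eligible bases, but 24 of the 100 strongest were on X. Chromosome 4, the small and largely heterochromatic one, held 6 sites (2.00%, 0.737 to 4.30%), at ranks from 10 to 289. It held 0.554% of weaker intergenic peaks and 0.676% of eligible bases. Of its few sites, rank 289 has 454 copies elsewhere and no ranked peak in either replicate.

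Some of the farthest sites lie in repeats. Of the 5 farthest from a TSS, rank 43, near CG43245 at 34773 bp, had a pooled signal of 43.0, with 29.96 in replicate 1 and no ranked peak in replicate 2. Rank 47, at 41807 bp, and rank 76, at 65083 bp, both have lncRNA:CR46075 as the nearest gene and have 28 and 3 copies. Rank 132, 35139 bp from CG10651, has 35 copies. Rank 82, at chr3R:266385-266788, is 300489 bp from Myo81F and has 4808 copies, the most of all.

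Copies elsewhere were found for 17 of the 300 sites and for 283 none. Among the 17, ranks 116, near lncRNA:dntRL with 450 copies, and 289, near fuss with 454, share sequence with each other, and neither had a ranked peak in replicate 1. Rank 289 had none in replicate 2 either. Leaving out the 17 sites, TATCGATA was at 17 of 283 summits, and the summit-minus-flank difference of 4.24 percentage points just missed the threshold (adjusted p = 0.0575, exact test). An annotated transposable element held 4 of the 300 summits (1.33%, 0.364 to 3.38%), against 10.9% of the eligible bases, and overlapped 20 of the peaks (6.67%).

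The share of sites whose nearest gene was bound at its own promoter was below that of all genes. With sites ranked by replicate 1 alone the 2 shares were close. All genes were counted equally, although genes with more eligible bases beside them are nearest to more of the intergenic DNA. The shares of all genes given here are not matched for this. The 300 sites had 268 different nearest genes, of which the nearest gene was protein coding for 218 sites and a non-coding RNA for 73 (24.3%, 19.6 to 29.6%), against 18.0% of all 18164 genes. A thresholded peak stood within 500 bp of a TSS of the nearest gene for 29 sites (9.67%, 6.57 to 13.6%), against 14.2% of all genes. Ranked by replicate 1 alone it was 14% and by replicate 2 alone 6.67%. For sites next to a non-coding RNA the count was 0 of 73, with an upper interval bound of 4.93%, against 2.48% of all such genes. For sites next to a protein-coding gene it was 28 of 218 (12.8%, 8.71 to 18.0%), against 17.3% of all such genes.

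Segmentation genes were the listed group with the most intergenic sites beside them. These genes divide the embryo into head regions and segments in the hours sampled. Of the 300 sites, 7 (2.33%, 0.943 to 4.75%) had 1 of 21 listed segmentation genes as their nearest gene, against 0.741% of the eligible bases. The strongest, rank 18 at chrX:9707961-9708097, is 13836 bp from btd, a head gap gene, and had a pooled signal of 78.8, with 67.7 in replicate 1 and 16.4 in replicate 2, so it was high in replicate 1 and low in replicate 2. It holds CGTGACAC, TATCGAT and CACGTG.

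Rank 40, 20179 bp from ems, a head gap gene of the homeobox family, had a pooled signal of 44.6, with 20.9 in replicate 1 and 22.9 in replicate 2, and holds motif 7 and CACGTG. Rank 117, 11337 bp from the gap gene kni, had a pooled signal of 29.8, with 17.2 in replicate 1 and 8.68 in replicate 2. Rank 120, 1450 bp from the segment polarity gene en, had a pooled signal of 29.5, with 14.99 in replicate 1 and 13.9 in replicate 2. Neither kni nor en had TATCGAT, motif 7 or CGTGACAC wholly within 100 bp of the summit; at kni, CGTGACAC was centred 100.5 bp from it, just across that limit. The remaining sites of the list were near wg, slp2 and again ems.

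Other gene groups had few intergenic sites or none. Doc3, a T-box gene of dorsal tissues, was the only 1 of 16 dorsoventral and mesoderm genes, and RpL13 and RpS23 the only 2 of 92 cytoplasmic ribosomal protein genes. Rank 123, 5691 bp from RpL13, had a pooled signal of 29.2, with 18.3 in replicate 1 and 18.1 in replicate 2. No site (0 of 300, interval to 1.22%) had a nearest gene among the 10 Hox and related genes, the 6 cellularisation genes, the 13 insulator protein genes or the 237 chemosensory genes of the Or, Gr, Ir and Obp families; of these only the chemosensory genes, nearest to 1.53% of the eligible bases, lie beside more than 0.1% of them. That list leaves out the CheB family, of which CheB93a was nearest to rank 66 and CheB38c to rank 80, named after their values were seen.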

How the data were processed

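ChIP-seq peak lists of 2 replicates and of both pooled were used. Peaks are on dm6, per the labels; for the aligner and peak caller, names were not given in the sources used here. The deposited lists give a signal value for each peak, on a scale that is not stated, and the −log10 of the IDR, which the authors computed and which is capped at 5; read depth is not in them. The ranked lists hold 8 further columns of per-replicate values that were not used. The ranked list used contains all 2067 thresholded peaks. Genes were those of Ensembl release 115, with transposable elements not counted as genes; RefSeq supplied the genome and a second annotation. Windows were 201 bp, and a copy was found with BLAST 2.17.0. Tests (scipy 1.17.1) ran over sites: exact McNemar, Fisher's exact and sign-flip permutation with 100000 resamples, checked on simulated data. The members, motifs and lists were chosen with earlier results of these data known. Named sites were the 10 strongest, the strongest thresholded in both replicates, those with TATCGATA, the farthest, those at the limit, those with most near-identical partners and those beside listed genes; sites with CGTGACAC were added after their values were seen. Alternatives were recomputed 1 choice at a time.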

Additional observations from a re-analysis of the deposited data

How the results depend on the processing

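Read depth is not in the files, and the 2 replicates give no spread between embryos for any share. Of 141 alternatives over 15 results, 111 were counted as unchanged, 21 moved, 7 lost the call and 2 changed sign. Unchanged means the same direction and side of the threshold, or a value within the interval. For counts of motifs and 8-mers it means a similar number, even where the motifs called differed. No paired analysis was possible because there is 1 group and no contrast between samples. With sites ranked by 1 replicate, leaving out the other, motifs past the threshold numbered 1 to 2 (TATCGATA in both, TATCGAT in 1; CGATA, motif 7 and CACGTG in neither), 8-mers 0 to 2, and the share of bound nearest genes was 6.67 to 14%; the TATCGATA difference from flanks was 4.67 to 6.67 percentage points and stayed called. That difference was 3.33 over 1000 bp from a TSS, 3.67 with transposable elements as genes and, in 2 alternatives chosen after seeing the data, 4.24 without copied sites and 1.95 without thresholded sites; none of these 4 passed. Motifs past the threshold were then 0, 3 and, without thresholded sites, 0; they were 3 with 50 bp windows and 3 with thresholded peaks only. The GC difference was -2.33 percentage points in the 100 strongest and -4.52 in thresholded peaks; it lost the call at 1.28 with flanks towards the TSS and 1.19 with flanks at 2000 bp. The promoter difference was -7.82 and not called with thresholded peaks only. In the 100 strongest, 44% were thresholded, 95% were covered in both replicates, the median distance was 1878 bp and 24% were on X. Coverage in both was 60% by summits and 4.67% by thresholded lists. Over 1000 bp from a TSS the median distance was 3345.5 bp and the divergent share 23.7%. Among thresholded peaks 25% were on X, 33.3% in convergent and 35.4% in tandem gaps. Any overlap with a transposable element gave 6.67%. The cause of each change was not tested.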
